A study of Mus musculus with 40 samples.

Results

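The cadherin and contactin families hold the adhesion molecules with which neurons recognise each other, and 53 of the 6831 transcripts in the table belonged to them. A transcript was a member if the symbol of its RefSeq accession began with Pcdh, Celsr, Clstn or Cntn, or was Cdh followed by a digit, or was Fat1 to Fat4. The 53 transcripts came from 43 genes. They were 9 clustered protocadherins, 13 transcripts of 7 other protocadherin genes, 7 type I and II cadherins, Cdh13, 3 transcripts of 2 Celsr genes, 3 Fat genes, 4 transcripts of 3 calsyntenin genes, 8 transcripts of 6 contactin genes and 5 contactin-associated proteins. The rule used the symbol alone and no measured value, although it was chosen with earlier results of these data known. The table held abundant transcripts only, so these are the members above its floor (lowest mean of any transcript, 549 normalised counts) and not every gene of the families.

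RNA was sequenced from the cortex of male C57BL/6 mice aged 12 weeks, in 40 libraries. The 4 groups had 10 libraries each in the labels, although the series' design text speaks of 4 per group. Mice had daily closed-head impacts at high frequency (HF-HI) or a sham procedure with the same anaesthesia and handling. Either was preceded by an intraperitoneal injection of saline or of memantine, which blocks glutamate receptors of the NMDA type. This gave 2 groups with saline, saline sham and saline HF-HI, and 2 with the drug, memantine sham and memantine HF-HI. The injection came 1 h before each session in every group, so none was free of injection or of isoflurane, and the cortex was taken 24 h after the last session. The labels name no batch and do not tie each library to its own mouse, so p-values measure the spread between these libraries. In a bulk sample, fewer cells of a type and less RNA per cell cannot be told apart.

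Classical cadherins bind the same cadherin on the facing cell through calcium-stiffened extracellular repeats and hold the actin cytoskeleton through catenins. Protocadherins share the repeats but signal through other partners. The clustered ones (Pcdha, Pcdhb and Pcdhg) are chosen from arrays of variable exons. Each neuron so carries its own combination and its branches avoid one another. Celsr and Fat proteins are giant cadherins of planar cell polarity, calsyntenins are cadherins of the synapse that also link cargo to kinesin, and contactins are immunoglobulin-type proteins held by a lipid anchor, which act with contactin-associated proteins at the node of Ranvier and at synapses.

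Several members were counted as more than one transcript of the same gene, and the coding sequence in which these differ is given here for the genes whose linked models could be told apart. Models are GENCODE M21 transcripts on GRCm38 (mm10) linked to the RefSeq accession, and capitals mark the bases that one transcript has and the other lacks. In Clstn1 (calsyntenin-1), a cassette exon of 30 coding bases on the plus strand (chr4:149626087-149626116) is in the model of NM_023051 and is skipped in that of NM_001290989.
Clstn1 NM_023051: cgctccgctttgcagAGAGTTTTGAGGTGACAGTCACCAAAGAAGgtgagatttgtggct
Clstn1 NM_001290989: cgctccgctttgcaggtgagatttgtggct

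In Pcdh7, the model of NM_001122758 runs 24 coding bases further into an exon on the plus strand (chr5:57913349-57913372) than that of NM_001310606. The model of NM_001310608 was not part of that comparison. In Pcdh9, NM_001081377 has a coding exon of 102 bases on the minus strand (chr14:93560476-93560577) that the model shared by NM_001271798 and NM_001271800 lacks. All 3 of these pieces are multiples of 3 bases long and keep the reading frame.
Pcdh7 NM_001122758: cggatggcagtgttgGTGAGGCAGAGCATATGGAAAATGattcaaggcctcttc
Pcdh9 NM_001081377: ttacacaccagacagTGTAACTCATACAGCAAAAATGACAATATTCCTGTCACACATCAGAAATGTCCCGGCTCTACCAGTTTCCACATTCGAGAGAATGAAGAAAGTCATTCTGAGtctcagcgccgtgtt

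In Pcdh10 the 3 transcripts share their coding sequence up to the last exon and end on different exons of the plus strand, so each encodes another end of the cytoplasmic tail. The coding part of the last exon is 68 bases in NM_001098170 (chr3:45432474-45432541), 17 bases in NM_001098171 (chr3:45419407-45419423) and 38 bases in NM_001098172 (chr3:45399323-45399360). The 3 Cntn1 models share one coding sequence and differ in length (3964, 5671 and 5646 bases for NM_001159647, NM_001159648 and NM_007727). The 2 Celsr2 accessions are linked to the same model, and no sequence is shown for either gene.
Pcdh10 NM_001098170: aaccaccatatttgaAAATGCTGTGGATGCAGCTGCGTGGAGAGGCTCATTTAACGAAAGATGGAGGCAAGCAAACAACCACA
Pcdh10 NM_001098171: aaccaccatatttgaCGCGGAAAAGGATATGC
Pcdh10 NM_001098172: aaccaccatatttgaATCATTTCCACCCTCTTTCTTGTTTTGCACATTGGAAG

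The summed counts of a library ran from 13322404 to 17529644, with similar ranges in the 4 groups. Of 7 markers of cortical excitatory neurons 6 were in the table. They summed to 13808 to 21083 normalised counts in each library, with 3 of 240 values at 0. The 13 striatal marker transcripts summed to 27890 to 50213 and the 4 thalamic ones to 3837 to 11317. What other regions gave to the dissections was not tested. Ttr, the choroid plexus marker in the table, ran from 74 to 22031 between libraries, with group medians from 304 to 2919, and its part in the results was not tested.

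Levels are normalised read counts, obtained by inverting the transformation of the deposited log2 values, and levels of different genes are compared only per kb of the longest linked model. Clstn1 was the most abundant of the 43 genes, at 5238 ± 295 normalised counts per kb in saline sham (mean ± SD, n = 10), followed by Cntn1 at 2182 ± 64.7 and Clstn3 at 1767 ± 82.7. Pcdh9 and Pcdh7 came next, at 1180 ± 132 and 905 ± 43.1. Fat4 and Pcdh19 were at the lower end, at 71.7 ± 11.1 and 112 ± 30.6. By transcript, the highest of each family per kb over all 40 libraries were Clstn1 NM_023051, Cntn1 NM_001159647, Pcdh7 NM_001310608, Cntnap1, Fat3, Celsr2 NM_017392, Cdh2, Pcdhgc5 and Cdh13. The rank of Pcdh7 NM_001310608 rests on a linked model of only 863 bases, a fragment, and is not used further. That of Cntn1 NM_001159647 rests on its shorter model, 3964 bases against 5671 for NM_001159648. By mean count NM_001159648 was the higher, at 6443 against 5216.

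**Figure D1:**
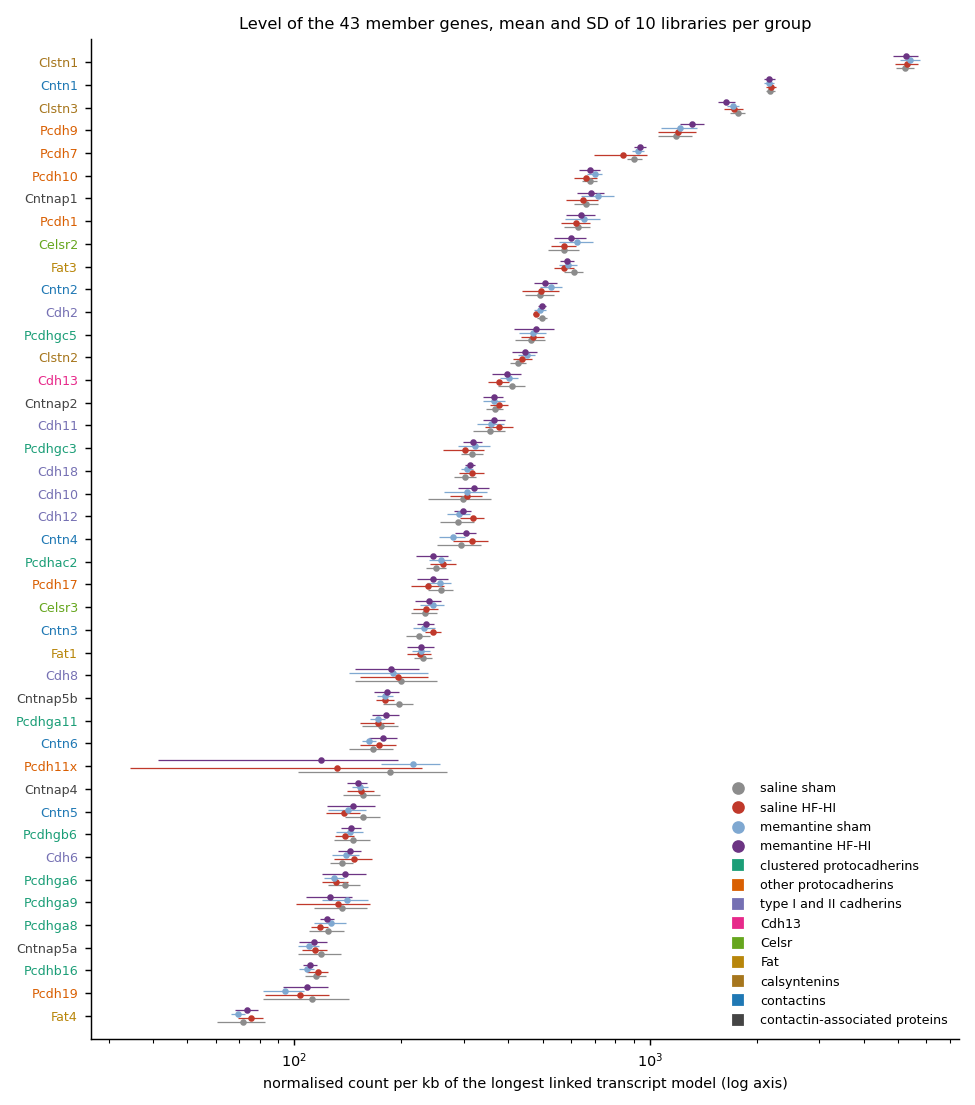
Level of the 43 genes (rows, in order of level) as normalised counts per kb on a log axis; points are group means of 10 libraries and bars are SD, with symbols coloured by family. The group means of a gene lie close together beside the range from Fat4 to Clstn1, and the widest bars belong to Pcdh11x.

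HF-HI was compared with sham under saline to ask what head impact changed without the drug. Of the 53 transcripts, 9 had an unadjusted limma p under 0.05, which is 17% of the members beside 9.53% of all transcripts tested. Cntn3 and Cdh12 were higher in HF-HI (2 members, against 4.58% of all transcripts higher) and Cdh2, Cntnap5b, Fat3, Cdh13, Cntn5, Pcdh17 and Pcdh7 NM_001310606 were lower (7 members, against 4.95% of all transcripts lower). No member passed a Benjamini-Hochberg adjusted limma p of 0.1, which 0.205% of all transcripts did, and the lowest adjusted p of a member was 0.25, for Cntn3. In all, 30 of 53 members (56.6%) lay below 0, as did 50.1% of all transcripts, and the median log2 change in counts was -0.02 for the members and 0.00 for the whole table.

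Beside these counts, markers of other regions and cells moved in the same comparison. All 7 striatal marker transcripts that passed an unadjusted p of 0.05, of 13 in the table, were lower in saline HF-HI, and their list summed to a median of 36341 normalised counts (30446 to 43270) against 43410 (30821 to 50213) in saline sham. Of the 4 interneuron marker transcripts 3 passed, 2 of them lower. In each of the lists of cortical excitatory neurons, astrocytes, oligodendrocytes and microglia 1 transcript passed, and it was higher. No striatal or interneuron marker was at 0 in any library, and the part of the markers other than the striatal ones in the result was not tested. With the mean of the striatal markers as a covariate, 3 of the 9 member calls were left (Cntn3, Cdh2 and Pcdh7 NM_001310606). In that fit 5.71% of all transcripts had p under 0.05. The covariate was itself lower in saline HF-HI, so the fit cannot tell a change with impact from a difference in dissection.

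The contactins gave the member with the smallest p. Cntn3 (NM_008779), an adhesion molecule of neurons that is also called BIG-1, had 1018, 1166 and 1291 normalised counts in saline sham (lowest, median and highest of 10 libraries) and 1172, 1266 and 1381 in saline HF-HI. The groups overlapped, but all 10 HF-HI libraries lay above the sham median. The mean went from 1158 ± 93 to 1273 ± 68 (SD, n = 10), 9.91% higher, a log2 change in counts of 0.14 ± 0.04 (SE) with limma p = 0.00264 and adjusted p = 0.25. A two-sided permutation test of the counts gave p = 0.00524, and with the striatal covariate the limma p was 0.0365. Cntn5 (NM_001170787), named after its values were seen, is a contactin known from the auditory pathway and had 551, 645 and 794 counts in saline sham and 479, 580 and 679 in saline HF-HI. In 9 of 10 HF-HI libraries it was below the sham median, a log2 change of -0.18 ± 0.08 (SE; limma p = 0.031), and the p rose to 0.0754 without saline sham replicate 5. The other contactin transcripts, those of Cntn1, Cntn2, Cntn4 and Cntn6, did not pass.

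Cntnap5b (NM_172851), one of the neurexin-like contactin-associated proteins, was the sole member of its family that passed. Its counts were 651, 804 and 888 in saline sham and 666, 728 and 806 in saline HF-HI, and 9 of 10 HF-HI libraries were below the sham median although none left the sham range. The log2 change was -0.12 ± 0.05 (SE; limma p = 0.0147). The memantine groups stood at the HF-HI level, with means of 726 ± 38 in memantine sham beside 732 ± 59 in memantine HF-HI beside 792 ± 76 in saline sham (SD, n = 10 each). The 5 contactin-associated proteins included Cntnap1, the Caspr of the paranode, at 3609 ± 274 and 3520 ± 362 counts, and Cntnap2, which clusters potassium channels beside it, at 3596 ± 193 and 3702 ± 210, in saline sham and saline HF-HI in that order, with neither past the threshold.

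Of the 7 type I and II cadherins, Cdh12 was higher and Cdh2 lower. Cdh2 (NM_007664), N-cadherin, which spans the excitatory synapse, was the steadiest member, with a coefficient of variation of 3.03% between libraries of a group where counting error alone gives 2.04%. Its counts were 2314, 2392 and 2539 in saline sham and 2222, 2316 and 2369 in saline HF-HI, and all 10 HF-HI libraries were below the sham median. The fall was small, 3.96% of the sham mean, a log2 change of -0.06 ± 0.02 (SE) with limma p = 0.00757 (0.00503 with the striatal covariate) and a permutation p of 0.00116. Cdh12 (NM_001008420), a type II cadherin of neurons, had 1428, 1588 and 1922 counts in saline sham and 1525, 1813 and 1961 in saline HF-HI. It was above the sham median in 9 of 10 HF-HI libraries, a log2 change of 0.14 ± 0.05 (SE; limma p = 0.00998), and its limma p was 0.147 with the striatal covariate. Of the 5 cadherins that did not pass (Cdh6, Cdh8, Cdh10, Cdh11 and Cdh18), 4 had a log2 change above 0.

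Cdh13 and Fat3 differed from the classical cadherins in build and were lower. Cdh13 (NM_019707), or T-cadherin, has a lipid anchor in place of the cytoplasmic tail and binds adiponectin. It had 1308, 1619 and 1694 counts in saline sham and 1273, 1453 and 1551 in saline HF-HI, with all 10 HF-HI libraries below the sham median (log2 change -0.12 ± 0.05, SE; limma p = 0.0215, and 0.148 with the striatal covariate). Fat3 (NM_001080814), a giant cadherin that steers dendrites of retinal amacrine cells, had 10174, 11081 and 12544 counts against 9698, 10581 and 11782. In 8 of 10 HF-HI libraries it was below the sham median (log2 change -0.09 ± 0.04, SE; limma p = 0.0197, 0.216 with the striatal covariate and 0.0541 without saline sham replicate 2). Fat1 and Fat4 did not pass, at 3375 ± 195 and 1155 ± 178 counts in saline sham and 3292 ± 251 and 1217 ± 101 in saline HF-HI (SD, n = 10).

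Among the protocadherins outside the clusters, 2 of 13 transcripts passed and both were lower. Pcdh17 (NM_001013753), named after its values were seen, marks corticobasal ganglia circuits and had 2702, 2894 and 3386 counts in saline sham and 2312, 2642 and 3222 in saline HF-HI (log2 change -0.12 ± 0.06, SE; limma p = 0.0465). Its permutation p was 0.0638, its limma p was 0.378 with the striatal covariate, and 28 of the 40 fits with a library left out kept it under 0.05. Pcdh7, also called BH-protocadherin, was counted as 3 transcripts. Its NM_001310606 had 2072, 3520 and 4031 counts against 1869, 2710 and 4131, a log2 change of -0.27 ± 0.13 (SE; limma p = 0.0489, permutation p = 0.107), and passed in 16 of 40 such fits. No calsyntenin and no Celsr transcript passed. Celsr3, which guides axon tracts, had 2687 ± 229 counts in saline sham and 2707 ± 218 in saline HF-HI, and Clstn2 had 1861 ± 101 and 1912 ± 117 (SD, n = 10). Of the protocadherins that did not pass, Pcdh1 had 2444 ± 206 and 2419 ± 225 counts. Pcdh19, an X-linked protocadherin, had 942 ± 257 and 873 ± 179, with libraries from 477 to 1315 over the 4 groups.

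**Figure D2:**
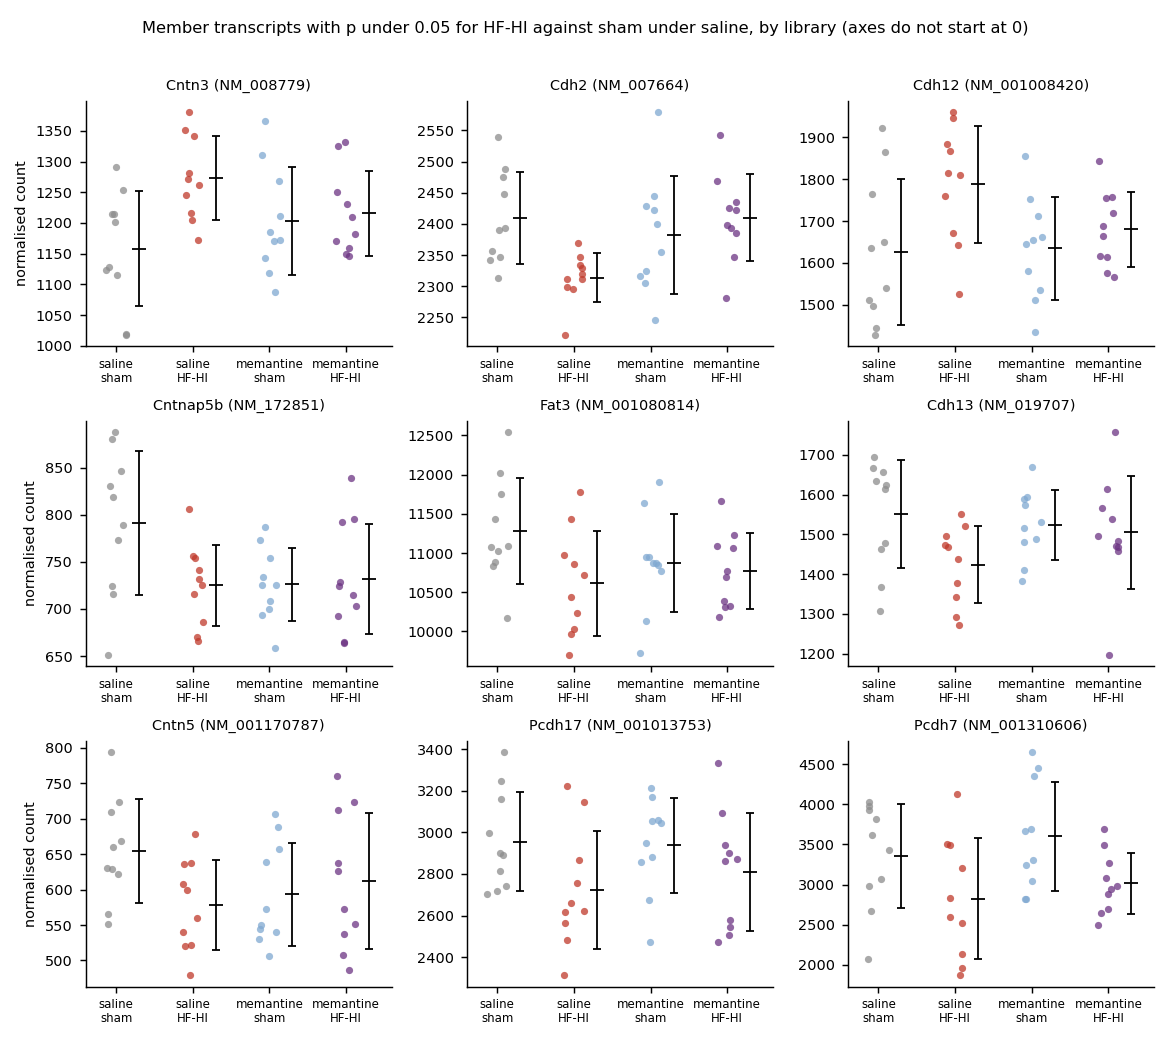
Normalised counts of the 9 member transcripts with p under 0.05 for HF-HI against sham under saline, by group; points are libraries (10 per group), bars are mean ± SD, and the axes do not start at 0. The saline sham and saline HF-HI libraries overlap in every panel, and for Cntn3, Cdh2 and Cdh13 all 10 saline HF-HI points lie on the same side of the saline sham median.

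Of the 9 clustered protocadherins in the table, 0 had an unadjusted limma p under 0.05 in each of the 5 comparisons. The shares of all transcripts called, 3.73% to 9.53%, give fewer than 1 call in 9, so 0 is near the background. Under saline their HF-HI against sham log2 changes in counts ran from -0.08 to 0.06. The C-type isoforms, whose promoters are not part of the stochastic choice, were the most abundant. Pcdhgc5 had 2196 ± 214 counts, Pcdhgc3 1485 ± 107 and Pcdhac2 1478 ± 95 in saline sham (SD, n = 10). The other 6, Pcdhga11, Pcdhgb6, Pcdhga6, Pcdhga9, Pcdhb16 and Pcdhga8, had means over all 40 libraries from 583 to 832 counts. Per kb, Pcdhgc5 stood at 469 normalised counts, Pcdhgc3 at 314 and Pcdhac2 at 254, and the other 6 between 113 and 175, on models of 4684 to 5888 bases for the 9. The coefficient of variation between libraries of a group was from 5.94% for Pcdhb16 to 17.9% for Pcdhga9. Isoforms of the Pcdha cluster share constant exons, as do those of the Pcdhg cluster, so reads there could be split between them in counting.

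**Figure D3:**
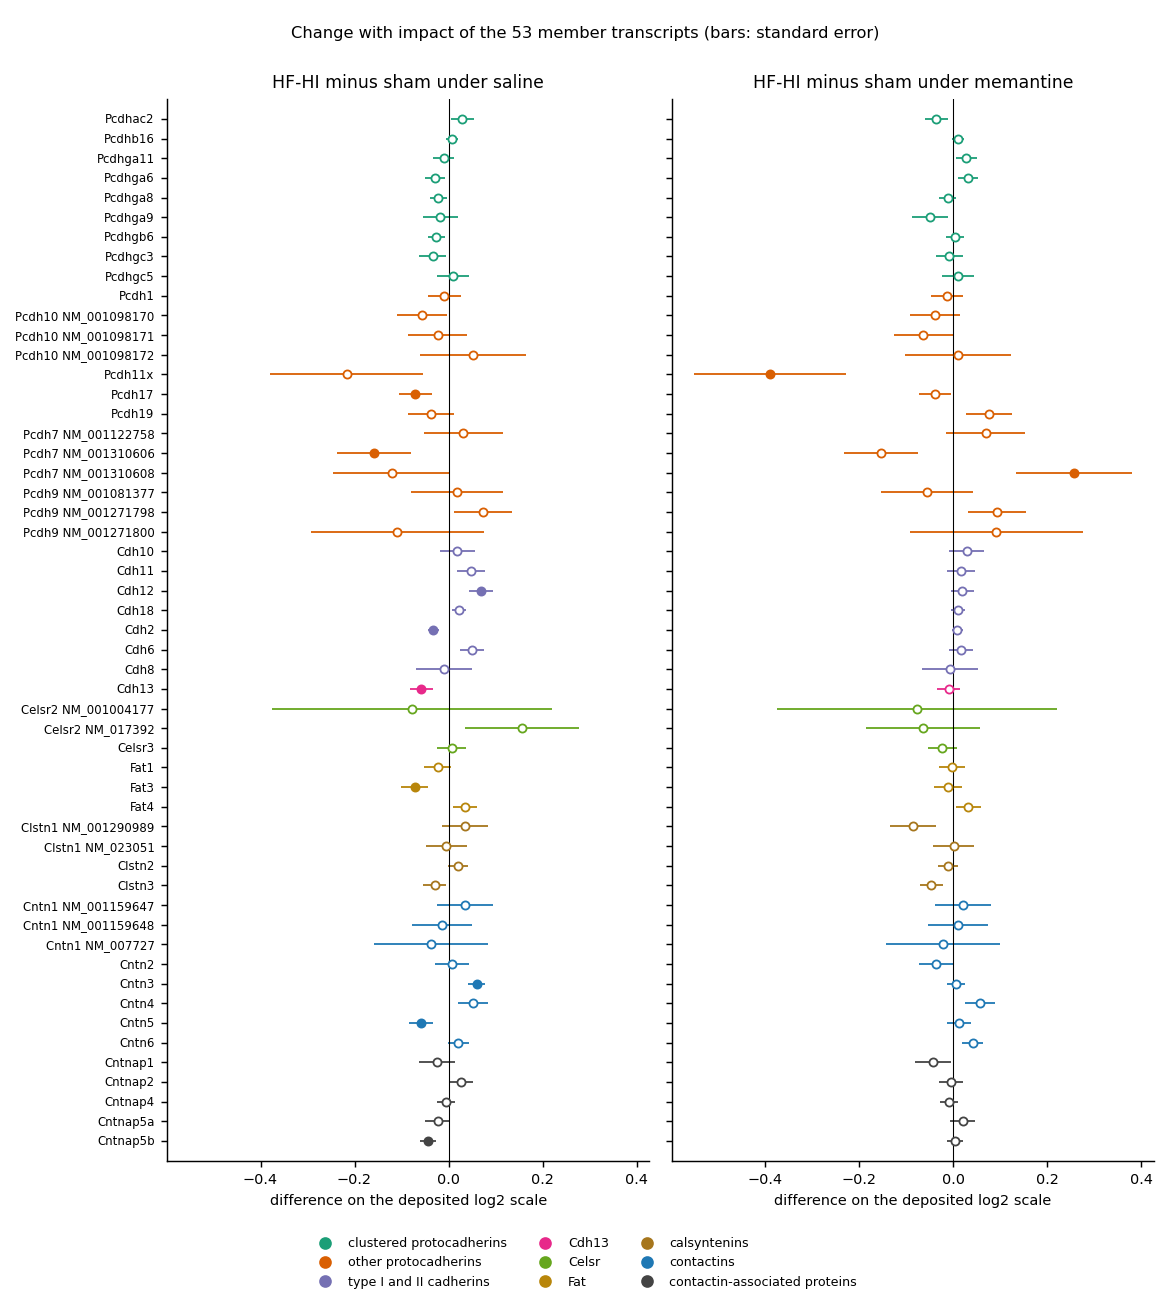
Difference between HF-HI and sham on the deposited log2 scale for the 53 transcripts (rows, coloured by family), under saline on the left and memantine on the right; bars are standard errors and filled points have p under 0.05. The 9 filled points under saline are spread over 6 families and 7 lie below 0, and the 2 under memantine are Pcdh11x and Pcdh7 NM_001310608.

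The same comparison in mice given memantine left few calls. In memantine HF-HI against memantine sham, 2 of 53 members (3.77%) had a limma p under 0.05, beside 4.61% of all transcripts. They were 1 higher and 1 lower (2.39% and 2.23% of all transcripts), and none passed the adjusted threshold, which 0.0146% of all transcripts did. Cell type markers moved here as well. Of 6 transcripts of cortical excitatory neurons 0 were above 0, with 0 past p under 0.05. Past it were 2 of 6 astrocyte transcripts, both higher, 2 of 13 of oligodendrocytes, 1 of them lower, and 1 of 4 thalamic ones. The part of these markers in the result was not tested. Of the 9 members called under saline, 0 passed here. Of all 651 transcripts called under saline 60 did (9.22%), a share that gives fewer than 1 of 9, so 0 is near the background. Their log2 changes in counts under memantine were between -0.07 for Pcdh17 and 0.04 for Cdh12 and Cntn5, apart from Pcdh7 NM_001310606 at -0.24 (limma p = 0.057). A change past the threshold in one arm and not in the other is not a difference between arms, and the interaction of impact and drug was tested for that.

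Pcdh11x (NM_001271809), an X-linked protocadherin, had 780, 919 and 1305 counts in memantine sham beside 0, 539 and 926 in memantine HF-HI. In 9 of 10 HF-HI libraries it was below the sham median and in 7 it was outside the sham range, which gave limma p = 0.0214 on the deposited scale, p = 0.103 on log2 counts and a permutation p of 0.00182. Low libraries also occurred in both saline groups, where it ranged from 0 to 1332 in sham and from 0 to 1224 in HF-HI, and 3 of all 40 libraries were at 0. The other call, Pcdh7 NM_001310608, had 69, 695 and 1242 counts in memantine sham beside 504, 1071 and 2105 in memantine HF-HI (limma p = 0.0447, permutation p = 0.0653), and it did not pass on log2 counts (p = 0.0507) or without memantine sham replicate 5, the library at 69 counts (p = 0.128).

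In the interaction of impact and drug, 2 of 53 members (3.77%) had a limma p under 0.05 beside 3.73% of all transcripts. Both were above 0 (1.92% of all transcripts were, and 1.82% were called below 0) and neither passed the adjusted threshold, which 0% of all transcripts did. Of the markers, 0 of 6 transcripts of cortical excitatory neurons, 6 of 6 of astrocytes and 12 of 13 of striatum were above 0. None of these had p under 0.05, while 1 oligodendrocyte and 1 thalamic transcript did. The part of these markers in the interaction was not tested. Cdh2 gave a difference between the arms of 0.07 ± 0.03 on log2 counts (SE; limma p = 0.0139), being lower with HF-HI under saline and at 2382 ± 94 counts in sham and 2410 ± 70 in HF-HI under memantine (SD, n = 10). Pcdh7 NM_001310608 gave 1.16 ± 0.55 (SE; limma p = 0.0372), which held in 29 of 40 fits with a library left out and was at p = 0.0714 without memantine sham replicate 5. Of the 9 members called under saline only Cdh2 passed, and of all 651 transcripts called under saline 120 (18.4%) did, the interaction sharing the saline libraries with that comparison. The interaction p was just above 0.05 for Cntn3, 0.0575 for Cntnap5b and 0.0613 for Cntn5, and from 0.145 to 0.96 for the other 5, so these 8 did not pass on the deposited scale. Cntn3 did pass in the fit of sums by gene on log2 counts (p = 0.0484), and it lies at the threshold.

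Memantine was then compared with saline in the impacted mice and in the sham mice. These comparisons share the saline libraries with the ones above, so that a group that stands apart appears in both. In HF-HI mice 2 of 53 members (3.77%) had p under 0.05 beside 3.91% of all transcripts. They were Cdh2, higher with memantine (1 member, 1.52% of all transcripts), and Clstn3, lower (1 member, 2.39%), and 0% of all transcripts passed the adjusted threshold. Cdh2 had 2222, 2316 and 2369 counts in saline HF-HI and 2281, 2410 and 2542 in memantine HF-HI, with 8 of 10 memantine libraries outside the saline range (log2 change 0.06 ± 0.02, SE; limma p = 0.00718, permutation p = 0.00096). Of the 4 groups, saline HF-HI was the low one for N-cadherin. Clstn3 (NM_153508), calsyntenin-3, a postsynaptic partner of neurexins, had 6269, 6926 and 7515 counts in saline HF-HI and 6063, 6562 and 7267 in memantine HF-HI (log2 change -0.07 ± 0.03, SE; limma p = 0.0478, permutation p = 0.0922), and 15 of 40 fits with a library left out kept it under 0.05. Of the 13 striatal marker transcripts 12 were above 0 in this comparison, 1 of them with p under 0.05, and with the striatal covariate the limma p was 0.106 for Clstn3 and 0.00477 for Cdh2.

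In sham mice 2 of 53 members (3.77%) had p under 0.05 for memantine against saline, beside 7.51% of all transcripts. Celsr2 NM_017392 was higher (1 member, 3.67% of all transcripts) and Cntnap5b lower (1 member, 3.84%), and 0.0293% of all transcripts passed the adjusted threshold. Cell type markers moved in this comparison too. All 6 transcripts of cortical excitatory neurons were above 0 (2 with p under 0.05), as were 10 of 13 of oligodendrocytes (2), and 5 of 6 of astrocytes were below 0 (1). Their part in the result was not tested. Cntnap5b had 659, 725 and 787 counts in memantine sham, with all 10 below the saline sham median (log2 change -0.12 ± 0.05, SE; limma p = 0.016). Celsr2 NM_017392 had 1968, 5363 and 7109 counts in saline sham and 4348, 5783 and 7240 in memantine sham (limma p = 0.0368, permutation p = 0.0966). Of the 10 memantine libraries 5 were above the saline median. The other Celsr2 transcript, NM_001004177, had 2256 to 4490 counts in 4 saline sham libraries and 60 to 1042 in the other 6, and the sum over Celsr2 did not pass (limma p = 0.0727).

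The spread between libraries had a larger median for transcripts that shared a gene with others in the table, although the ranges overlapped. The 16 transcripts of the 6 genes with more than one had coefficients of variation between libraries of a group from 7.93% to 110%, with a median of 19.5%. The 37 that were alone for their gene ran from 3.03% to 47.5% (Pcdh11x), with a median of 8.91%. Celsr2, a seven-pass cadherin of planar polarity, is the clearest case. NM_001004177 ranged from 0 to 4490 counts and took from 0% to 69.5% of the gene's counts, while the sum of both had a coefficient of variation of 9.99% and means of 6093 ± 612 and 6092 ± 494 counts in sham and HF-HI with saline and 6609 ± 730 and 6350 ± 652 with memantine (SD, n = 10). In Cntn1, the contactin of the node and of glial junctions, the coefficients of variation were 13.2% to 61.2% by transcript and 3.28% for the sum, which made the gene total one of the steadiest of the families.

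**Figure D4:**
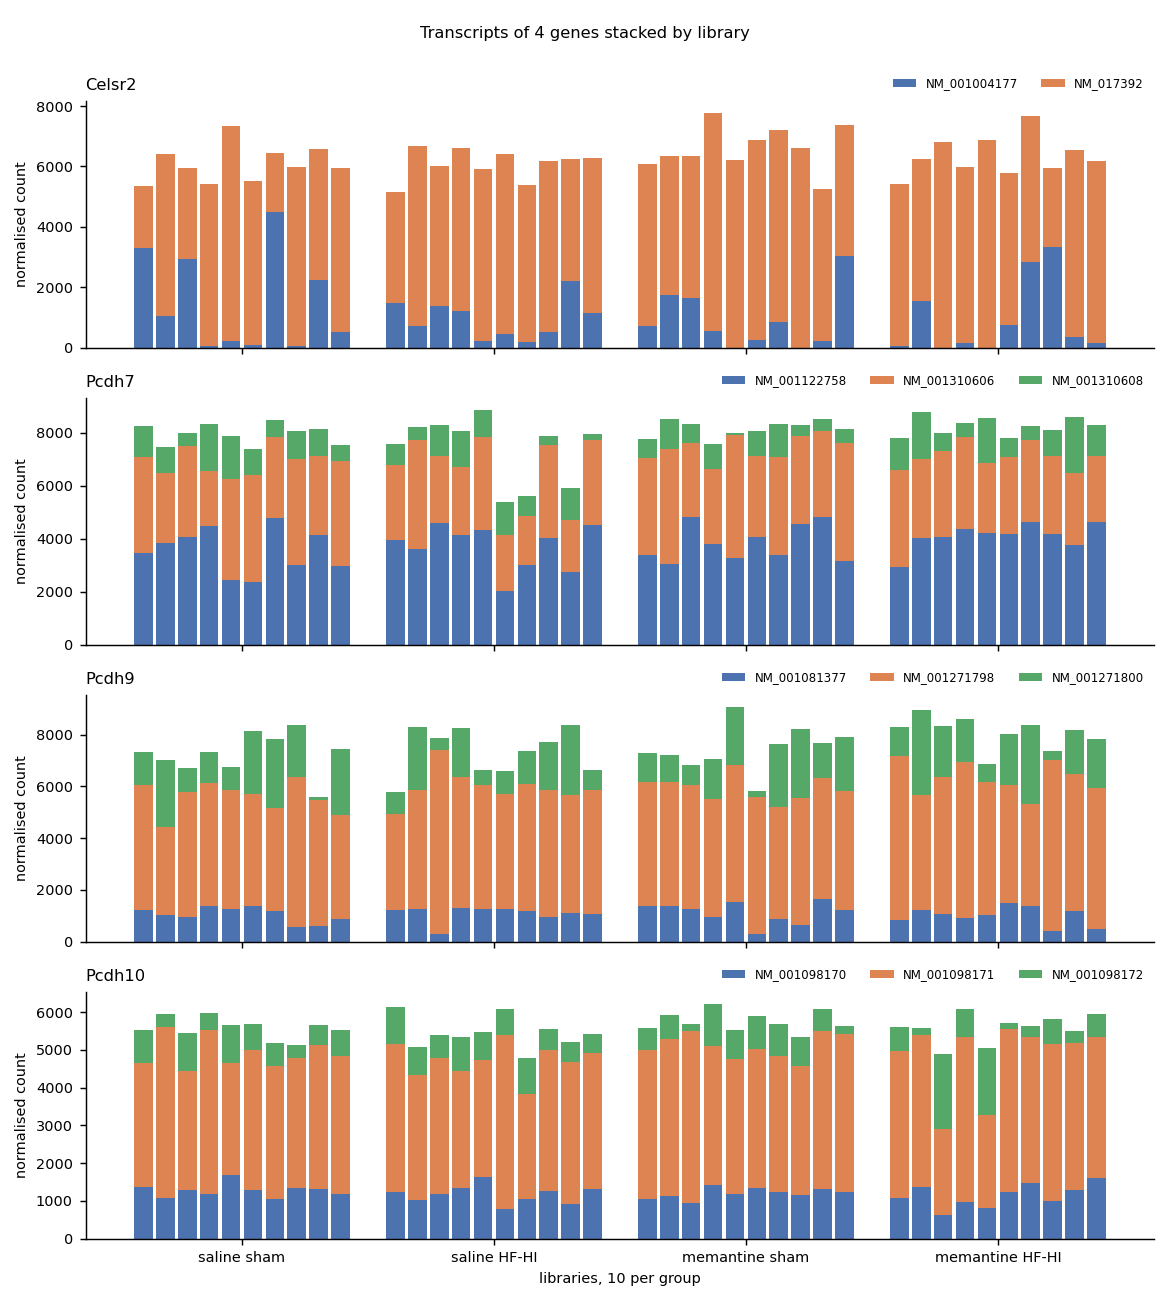
Normalised counts of the transcripts of Celsr2, Pcdh7, Pcdh9 and Pcdh10, stacked for each of the 40 libraries (10 per group). The height of a bar, the sum over the gene, varies less than the pieces, and in Pcdh7 there are 3 low bars, all in saline HF-HI.

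The shares of the transcripts shown above by their exons were as follows. For Clstn1 the form with the 30-base exon (NM_023051) took 60.7 ± 2.8% of the counts after saline and sham and 59.9 ± 2.38% after saline and HF-HI. With memantine its shares were 59.0 ± 1.83% in sham and 60.8 ± 2.59% in HF-HI (SD, n = 10), and it lay between 54.8% and 65.9% in all 40 libraries. For Pcdh10 the form with the 17-base coding end (NM_001098171) led with 66% of the counts over all libraries, beside 21.4% and 12.6% for the forms with 68 and 38 bases. For Pcdh9 the form with the 102-base exon (NM_001081377) took 14.2%, between 3.63% and 21.7%. For Pcdh7 the form without the 24 bases (NM_001310606) took 42.5 ± 9.16% in sham and 38.1 ± 6.17% in HF-HI with saline, and 44.2 ± 8.3% and 36.7 ± 5.47% with memantine.

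No share passed an adjusted test between groups. Of 64 two-sided permutation tests (16 shares in 4 comparisons), 1 had p under 0.05, for Pcdh7 NM_001310606 in memantine HF-HI against memantine sham (p = 0.0289), and its Benjamini-Hochberg adjusted p was 0.973. The 2 shares of a gene with a pair of transcripts are mirror images, so these tests are not independent.

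Summing the transcripts of each gene changes counts only where a gene has several in the table. Of the member transcripts, 37 were alone for their gene. Under saline, 9 of 43 genes had a limma p under 0.05 in HF-HI against sham, beside 10.7% of the 5867 genes tested. Of the genes called, 2 were higher and 7 lower, and shares by direction over all genes are not given. Only Pcdh7 among them was a sum over several transcripts. The others (Cntn3, Cdh12, Cdh2, Cntnap5b, Fat3, Cdh13, Cntn5 and Pcdh17) had the same counts as before, so their calls do not test summing. The sum over Pcdh7 had 7373, 8029 and 8469 counts in saline sham and 5366, 7898 and 8867 in saline HF-HI, with 3 HF-HI libraries (replicates 6, 7 and 9) at 5366, 5622 and 5901 and the other 7 at 7587 or more (log2 change -0.13 ± 0.06, SE; limma p = 0.0434). Without replicate 6 of saline HF-HI the p was 0.146, and 30 of 40 fits with a library left out kept it under 0.05. In the memantine groups the Pcdh7 sum stood at 8148 ± 314 in sham and 8250 ± 340 in HF-HI (SD, n = 10).

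By gene, 4 of 43 passed for memantine against saline in HF-HI mice, beside 3.66% of genes. They were Pcdh7 (log2 change 0.18 ± 0.06, SE; limma p = 0.00537), Cdh2 and Pcdh9 (p = 0.0496), all higher with memantine, and Clstn3, lower. The 3 low libraries of saline HF-HI are in this comparison too, and the p for Pcdh7 was between 0.00103 and 0.0183 with any library left out. No gene passed for HF-HI against sham under memantine (0 of 43, beside 4.36% of genes), and for Pcdh11x, a gene with 1 transcript in the table, the fit of sums is on the log2 count scale, where it did not pass either. For memantine against saline in sham, 1 passed (Cntnap5b, beside 7.91% of genes), and in the interaction 2 did (Cdh2 and Cntn3, beside 3.58%).

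The molecules that cadherins and contactins work with were read from the same fits, as 68 transcripts of 5 lists. These lists were chosen with earlier results of these data known. For HF-HI against sham under saline, 9 of 68 had p under 0.05 (13.2%, beside 9.53% of all transcripts), 4 higher and 5 lower. In the cadherin-catenin list 1 of 13 passed, p120-catenin (Ctnnd1 NM_007615, log2 change in counts 0.30 ± 0.14, SE; limma p = 0.0373), which holds cadherins at the membrane. In the planar polarity list 1 of 6 passed, Prickle1 (0.12 ± 0.05; p = 0.0168). In the list of protocadherin signalling and the WAVE actin complex 3 of 18 passed, Abi1 NM_001331044 (-0.52 ± 0.19; p = 0.00955) and 2 transcripts of Nckap1 in opposite directions, NM_001290745 at 0.11 ± 0.05 and NM_016965 at -0.22 ± 0.10.

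The contactin partners held the most calls, with 4 of 16 transcripts, which came from 11 genes. Partners were read by single transcript, without sums by gene or fits with a library left out. Ncam1 NM_001113204, a transcript of the neural cell adhesion molecule, was lower (-0.32 ± 0.11, SE; limma p = 0.00779), as were transcripts of the receptor phosphatases that bind contactins, Ptprz1 NM_001311064 (-0.32 ± 0.15; p = 0.0311) and Ptprg (-0.25 ± 0.12; p = 0.0378), and the potassium channel Kcna1 was higher (0.07 ± 0.03; p = 0.0451). None of the 15 transcripts of calsyntenin partners passed, a list of kinesin-1 subunits, the amyloid precursor protein App and its adaptors Apba1 and Apba2. With the striatal covariate 3 of the 68 passed. In the other comparisons, 3 of 68 partner transcripts passed for HF-HI against sham under memantine (4.41%, beside 4.61% of all transcripts) and 1 for memantine against saline in HF-HI (1.47%, beside 3.91%). For memantine against saline in sham 2 passed (2.94%, beside 7.51%), and in the interaction 1 did (1.47%, beside 3.73%). None passed the adjusted threshold in any comparison.

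How small a change these libraries could show varied with the transcript. In saline HF-HI against saline sham the median standard error of the members was 0.06 on log2 counts. It ran from 0.02 for Cdh2 to 1.45 for Celsr2 NM_001004177. For 40 of 53 members the 95% interval of the log2 change stayed, in either direction, within the size of a 25% rise. In memantine HF-HI against memantine sham this held for 39 of 53.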

How the data were processed

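The deposited values were log2-like variance-stabilised values, 1 per RefSeq transcript and library, which the authors made with DESeq2 from eXpress counts of STAR alignments to mm10 (rRNA-depleted stranded libraries). The submitters' processing notes name HISAT2 and StringTie instead, and this was not resolved. Values at the floor of 10.358 were taken as count 0 and the transformation was inverted to normalised counts. All values under 5000 came out as whole reads (tolerance 0.1), with size factors from 0.859 to 1.14. Symbols of 6811 of 6831 transcripts came from RefSeq GRCm38.p6 and of 14 from GENCODE M21.

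All transcripts were fitted in limma 3.58.1 (R 4.3.3; lmFit and eBayes with trend, group means, 40 libraries). The call was the study's unadjusted p under 0.05, with Benjamini-Hochberg adjusted p under 0.1 beside it. P-values are from the deposited scale, and changes ± SE from log2(count + 1). Called members and shares were also tested by two-sided permutation of libraries (100000 resamples). The fit was tested on simulated data. No count test was run, since the deposited unit is log2.

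Named were, per comparison, up to 3 called members in each direction with the smallest p, the highest member per kb of each family, any with adjusted p under 0.1, and genes with several transcripts. Other members given with values were chosen after their values were seen. Members, partner lists and marker lists were chosen with earlier results of these data known. Alternatives were the log2 count scale, median centring, quantile normalisation, a mean count of 1000 or more, the replicate block, a striatal covariate, library weights, only the libraries compared, sums by gene, and each library left out. Linked GENCODE models may differ from the RefSeq transcripts in length.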

Additional observations from a re-analysis of the deposited data

Results flagged for a closer look

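Each of the 28 named transcripts, and each sum over a gene with several transcripts (6 genes), was examined in the 4 groups for a library standing apart from the other 9 of its group by Dixon's criterion. This was the case in 7 of 136 groups tested, and chance gives about 1 in 20. Libraries at the low end were Pcdh9 NM_001081377 at 286 normalised counts in saline HF-HI replicate 3, Pcdh7 NM_001122758 at 2919 in memantine HF-HI replicate 1, Cdh2 at 2222 in saline HF-HI replicate 6, Celsr2 NM_017392 at 2616 in memantine HF-HI replicate 8 and Cdh13 at 1196 in memantine HF-HI replicate 2. Libraries at the high end were Pcdh10 NM_001098170 at 1697 in saline sham replicate 5 and Pcdh9 NM_001271798 at 7121 in saline HF-HI replicate 3, the library in which Pcdh9 NM_001081377 was low.

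The change with HF-HI differed between the saline and memantine arms by the interaction term at an unadjusted limma p under 0.05 for Cdh2, by 0.0749 on log2 counts, and for Pcdh7 NM_001310608, by 1.16. The second was at p = 0.0714 without memantine sham replicate 5. Neither passed after adjustment over all transcripts, the adjusted limma p being 0.999 for both.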

How the results depend on the processing

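No call changed direction on log2 counts, with the replicate block or with the striatal covariate, the settings in which direction was read for each transcript. Shares of all transcripts called moved with some settings as well: library weights raised them to 11.2%, 7.51%, 5.04%, 9.24% and 5.53% for impact under saline, impact under memantine, the drug in HF-HI, the drug in sham and the interaction. The striatal covariate gave 5.71%, 4.63%, 3.53%, 7.71% and 3.06%, and a mean count of 1000 or more gave 10%, 4.21%, 3.66%, 7.84% and 3.26%. On log2 counts the shares were 9.56%, 4.51%, 3.91%, 7.55% and 3.67%. Fits of only the libraries compared gave 8.55%, 4.64%, 4.29% and 7.09%, without the interaction. The count of members called for HF-HI against sham under saline was 9, and 7 to 10 under the planned settings other than the striatal covariate, which gave 3, and it gave 3 partner transcripts (9) and 3 gene sums (9). For HF-HI against sham under memantine (2 members) the count was 0 on log2 counts, with a mean count of 1000 or more and summed by gene, 1 with the striatal covariate, 4 with library weights and 5 with only the libraries compared. For memantine against saline in HF-HI (2) it was 1 with the striatal covariate and with only the libraries compared, and 4 with library weights and summed by gene. In sham (2) it was 1 at a mean count of 1000 or more and summed by gene, and 4 with library weights, and in the interaction (2) it was 1 and 4 with that filter and those weights. Partner transcripts for memantine against saline in HF-HI (1) were 3 on log2 counts and 3 with the striatal covariate. Gene sums with that covariate were 1 under memantine (0) and 1 in the interaction (2).

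With each library left out, members called ranged from 6 (without saline sham replicate 6) to 10 for impact under saline, 1 to 5 (without memantine HF-HI replicate 7) under memantine, 1 to 4 (without saline HF-HI replicate 3) for the drug in HF-HI, 1 to 7 (without memantine sham replicate 9) for the drug in sham and 1 to 6 (without saline HF-HI replicate 1) in the interaction. Gene sums ranged from 6 to 11, 0 to 2, 2 to 5, 1 to 6 and 1 to 4 in that order. The shares of all transcripts and genes called in these fits are not given. A shift of the members can therefore not be told from a shift of the whole table.

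Same-numbered libraries did not deviate together (mean r 0.00211 over 60 pairs, 4 above 0.1, beside 25 of 540 pairs of different numbers). Of 40 libraries 3 correlated best with their own number. No pairing by number was seen, although these correlations cannot exclude a weak one. With the replicate block, members called were 9 for impact under saline, partner transcripts were 5 under memantine (3), 2 for the drug in HF-HI (1) and 0 in the interaction (1), and gene sums were 1 in the interaction (2). The causes were not tested.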
